A study of Mus musculus with 6 samples.

Results

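A set of 10 matrix protease and inhibitor genes was followed by symbol through 6 liver RNA libraries: the matrix metalloproteinases Mmp2, Mmp12, Mmp13, Mmp14 and Mmp19, the ADAMTS-family proteases Adamts2 and Adamts5, and the tissue inhibitors of metalloproteinases Timp1, Timp2 and Timp3. They are 10 of 18384 genes with at least 1 rounded read in the 6 libraries. All libraries came from livers of male C57BL/6 mice (C57BL/6J in the study), labelled 6-8 weeks old, with 1 library per condition. Given the 16 weeks of diet and 6 weeks of injection below, that age can only be the age at the start. The age at collection is not stated. In the diet experiment, mice received a standard diet (SD, labelled CD), a high-fat diet (HFD, labelled NASH), or HFD with JT003 (HFD-JT003). SD was a control diet lower in fat, from the supplier of the HFD. JT003 is a peptide agonist of the adiponectin receptors AdipoR1 and AdipoR2. The study's methods give 16 weeks of diet and 0.5 mg/kg JT003 daily for the last 4 weeks. The study describes the sequenced diet groups as SD, HFD and HFD with JT003, and names separately the mice that also received a methionine- and choline-deficient diet, so the libraries are called HFD here although their label reads NASH. In the CCl4 experiment, mice received intraperitoneal corn oil (Oil), 20% carbon tetrachloride in corn oil (CCl4) every 3 days for 6 weeks, or CCl4 with 0.5 mg/kg JT003 daily for 3 weeks (CCl4-JT003). The sources do not say whether a library was 1 mouse or a pool, and no condition had a second library of its own, so no difference below was tested against the spread between mice. Further reads were at hand for CCl4 alone, in a pooled column described below.

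Liver fibrosis is a balance between deposition of collagen by activated stellate cells and its removal by secreted and membrane-bound proteases. Metalloproteinases are made as inactive precursors that other proteases cleave, and TIMPs block the active enzymes by binding their catalytic zinc site. Mmp14, a membrane-anchored collagenase, activates pro-Mmp2 with the help of Timp2, Mmp13 is the main interstitial collagenase of rodents, and Mmp12 is an elastase made largely by macrophages. A transcript level therefore gives neither active enzyme nor inhibition.

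The 6 libraries held between 19374236 and 20184557 rounded expected counts and listed 16083 to 16738 genes. Albumin took 5.29% to 7.62% of the counts, and the hepatocyte markers were present in every library. A gene was called where an exact binomial test on the rounded expected counts of 2 libraries gave an adjusted p under 0.001 and the log2 ratio, with a prior count of 2, was at least 1 in size. This test compares 2 libraries, not 2 conditions, and the 95% intervals given below cover counting error only. In bulk liver RNA, fewer cells of a type and less RNA per cell cannot be told apart.

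Promoter sequence, read upstream of the annotated start, is shown for the genes that were called together with HFD (Mmp12, Mmp13 and Timp1) and for Mmp14, whose log2 ratios had opposite signs in the diet and CCl4 experiments. RefSeq promoters were matched for 7 of the 10 genes, and Mmp2, Mmp19 and Adamts5 had no entry. A set of 3 short motifs was searched on both strands in the 250 bases before the start: TGANTCA (the AP-1 element), AGGAAG (an ETS core) and TATAAA (the TATA box). TGANTCA was present in 6.75% of 32851 RefSeq promoters, AGGAAG in 29.5% and TATAAA in 12.4%. The sequences run 5′ to 3′ on the plus strand of GRCm38.p6, and capitals mark the matches.
Mmp12, second annotated start, chr9:7347124-7347373: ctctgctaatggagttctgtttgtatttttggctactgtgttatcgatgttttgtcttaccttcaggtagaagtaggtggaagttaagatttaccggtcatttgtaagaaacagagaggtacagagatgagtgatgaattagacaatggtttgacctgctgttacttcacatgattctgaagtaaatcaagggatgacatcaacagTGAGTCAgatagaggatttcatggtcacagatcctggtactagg
Mmp13, chr9:7272264-7272513: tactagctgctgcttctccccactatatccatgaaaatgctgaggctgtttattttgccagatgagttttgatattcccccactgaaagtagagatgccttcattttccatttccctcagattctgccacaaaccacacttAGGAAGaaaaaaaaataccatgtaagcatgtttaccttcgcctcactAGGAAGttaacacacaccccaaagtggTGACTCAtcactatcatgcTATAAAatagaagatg
Timp1, chrX:20869916-20870165: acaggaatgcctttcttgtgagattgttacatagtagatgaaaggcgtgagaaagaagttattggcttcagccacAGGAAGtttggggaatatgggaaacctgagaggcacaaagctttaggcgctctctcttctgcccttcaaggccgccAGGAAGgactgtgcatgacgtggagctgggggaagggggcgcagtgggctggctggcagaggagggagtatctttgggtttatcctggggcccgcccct
Mmp14, chr14:54431348-54431597: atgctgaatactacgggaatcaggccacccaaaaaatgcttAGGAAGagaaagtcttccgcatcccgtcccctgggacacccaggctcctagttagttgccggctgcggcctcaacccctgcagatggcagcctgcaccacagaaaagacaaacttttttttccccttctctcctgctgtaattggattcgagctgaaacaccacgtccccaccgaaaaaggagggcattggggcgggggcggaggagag
The AP-1 element began 44 bases before the second Mmp12 start and 35 bases before the Mmp13 start, where a TATA box followed it. Timp1 held 2 ETS cores and Mmp14 held 1, without TGANTCA or TATAAA in these windows. The first annotated Mmp12 start, not shown, held an ETS core and no AP-1 element. A match is a description of letters and no binding was measured.

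Per transcript length, Mmp14 and Mmp19 were the most abundant of the 10 in every library. Mmp14 stood at 16.84, 9.29 and 10.26 FPKM (fragments scaled to transcript length and library depth) in SD, HFD and HFD-JT003, and at 10.21, 25.46 and 18.46 FPKM in Oil, CCl4 and CCl4-JT003. Mmp19 stood at 11.55, 19.24 and 18.24 FPKM, and at 12.91, 21.55 and 17.47 FPKM, in the same order. Together they made up between 82.3% and 92.4% of the summed FPKM of the 7 proteases. Timp2 and Timp3 came next in every library, with 5.15 to 6.87 and 2.79 to 9.75 FPKM. Mmp2, Adamts2, Mmp12, Timp1, Adamts5 and Mmp13 each lay at or below 2.74 FPKM everywhere. With 1 library per condition, neighbours in this order cannot be separated by replicate spread.

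**Figure D1:**
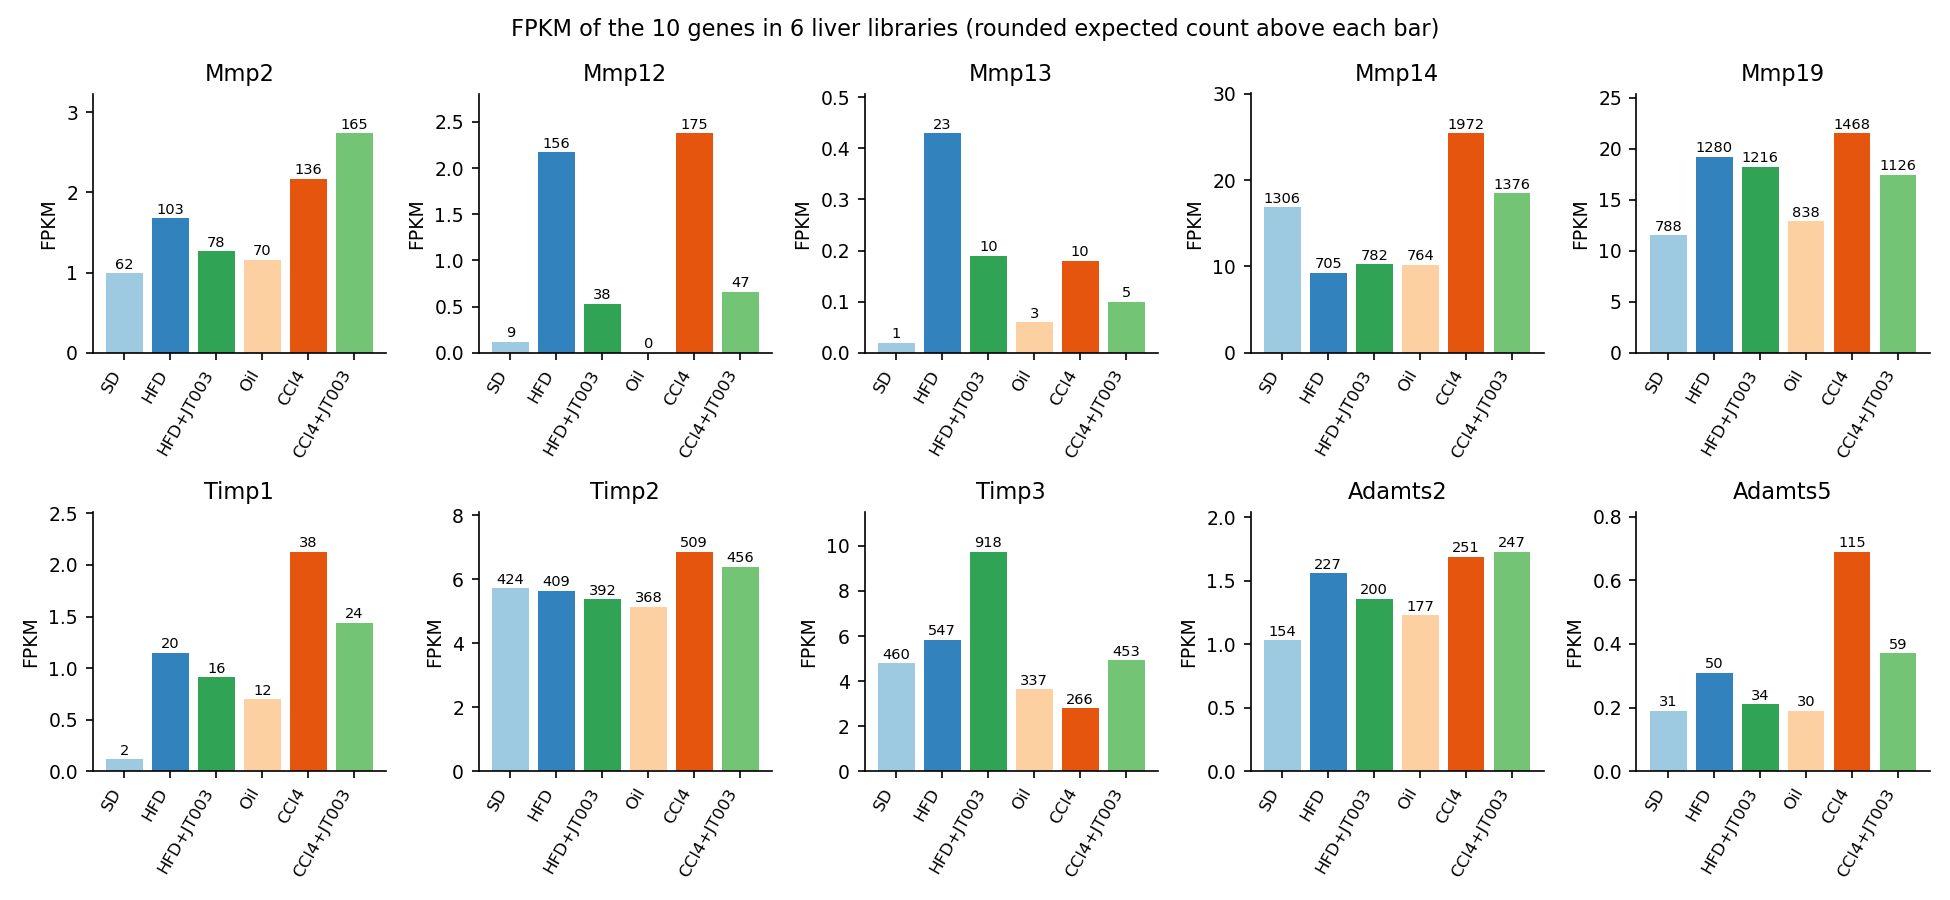
FPKM (vertical axis, linear, starting at 0) of each of the 10 genes in the 6 libraries, with the rounded expected count above each bar. Mmp12 has 156 counts in HFD and 175 in CCl4 against 9 in SD and 0 in Oil, and the bars of Timp3 are the tallest in HFD-JT003.

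The first comparison asked what 16 weeks of HFD did to these genes. Mmp12, Mmp13 and Timp1 rose, that is 3 of 10 called higher where 2.96% of the 16973 genes tested were called higher, and none was called lower where 2.49% of all genes were. The median log2 ratio of the 10 was 0.59, beside -0.00035 over all genes. The 10 were chosen with earlier results of these data known, so the values over all genes are given beside them and no set was tested. The counting interval lay above 0 for 6 genes, below 0 for 1 and across 0 for 3.

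Mmp12, the macrophage elastase, was near absent in SD, with 9 counts, and reached 156 in HFD and 38 in HFD-JT003. The HFD library was 13.6-fold higher than SD, a log2 ratio of 3.76 (95% interval 3.06 to 5.18). Mmp13, the collagenase, held 1, 23 and 10 counts, a log2 ratio of 3.0 (1.81 to 9.80) for HFD over SD. Timp1, the inducible TIMP that is widely used as a sign of ongoing fibrosis, held 2, 20 and 16 counts, a log2 ratio of 2.40 (1.19 to 6.37). Mmp13 and Timp1 rest on 1 and 2 reads in SD, so their sizes are imprecise. Timp1 overlaps the gene Syn1, which had 13, 21 and 14 counts in the same libraries, and the strand used in counting was not given in the sources used here.

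Mmp14 lay on the other side of 0. It held 1306, 705 and 782 counts in SD, HFD and HFD-JT003, with SD above both HFD libraries. The HFD library lay at a log2 ratio of -0.98 (-1.12 to -0.85) to SD, just short of the size a call needed. Mmp19, a broad-specificity secreted metalloproteinase, held 788, 1280 and 1216 counts, with SD the lowest and a log2 ratio of 0.61 (0.48 to 0.74), not called. Mmp19 overlaps the gene Tmem198b, which held 96, 105 and 153 counts in these libraries and 137, 101 and 175 in Oil, CCl4 and CCl4-JT003. Mmp2, the gelatinase that Mmp14 activates, had 62, 103 and 78 counts and a log2 ratio of 0.63 (0.17 to 1.12). Adamts2, the procollagen N-proteinase, had 154, 227 and 200 counts and a log2 ratio of 0.46 (0.17 to 0.77). Mmp19, Mmp2 and Adamts2 thus had intervals above 0 at under 2-fold. Adamts5, an aggrecanase, had 31, 50 and 34 counts and a log2 ratio of 0.57 with an interval across 0 (-0.08 to 1.29). Timp2 had 424, 409 and 392 counts, the flattest of the 10, and Timp3 had 460 in SD and 547 in HFD. Their log2 ratios were -0.14 (-0.34 to 0.06) and 0.16 (-0.02 to 0.34).

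**Figure D2:**
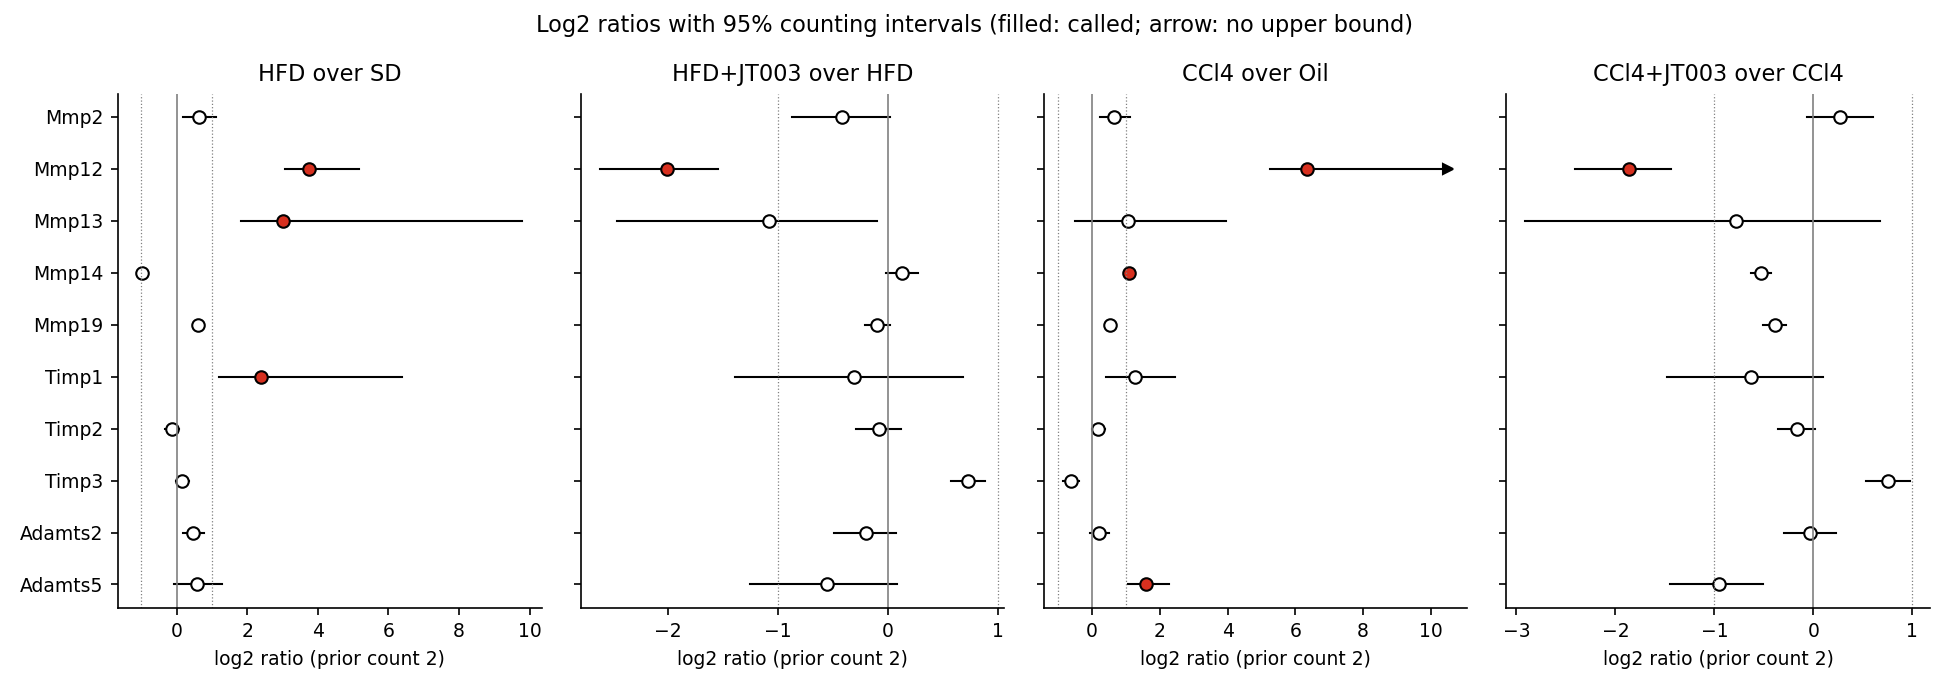
Log2 ratios (horizontal axis, prior count 2) of the 10 genes in the 4 main comparisons, with 95% counting intervals as lines. Filled points were called, dotted lines mark a log2 ratio of 1 in either direction, and the arrow has no upper bound because Oil held 0 Mmp12 counts. Mmp12 is filled in all 4 panels, higher with HFD and CCl4 and lower with JT003.

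The second comparison asked how the JT003-treated HFD liver differed from HFD alone. It shares the HFD library with the first, so a high or low HFD value moves both ratios in opposite senses. Only Mmp12 of the 10 was called: it fell to 38 counts, 4.01-fold lower, a log2 ratio of -2.004 (-2.61 to -1.54), where 0.901% of 17090 genes were called lower. None of the 10 was called higher, where 0.767% of all genes were. The treated library still lay above SD, with a log2 ratio of 1.76 (0.89 to 3.20), the only one of the 10 called against SD, where 3.2% of all genes were called higher.

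Timp3, the matrix-bound TIMP that also blocks ADAM and ADAMTS proteases, was the one gene of the 10 with its interval above 0. It held 918 counts with JT003, against 547 in HFD and 460 in SD, the highest count of the 3 libraries. Its log2 ratio was 0.72 (0.57 to 0.88) over HFD and 0.88 (0.72 to 1.05) over SD, neither of which was called. Timp3 overlaps the gene Syn3, which held 48, 66 and 47 counts in SD, HFD and HFD-JT003. Mmp13 had a log2 ratio of -1.08 (-2.46 to -0.10) on 23 and 10 counts and was not called. For the 7 others the interval included 0. Mmp14 stood at 0.13 (-0.02 to 0.28), Mmp19 at -0.10 (-0.21 to 0.02) and Timp1 at -0.31 (-1.39 to 0.68) on the log2 scale. The treated library thus held Mmp14 and Mmp19 close to their HFD counts.

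The third comparison asked what 6 weeks of CCl4 did. Mmp12, Mmp14 and Adamts5 rose, 3 of 10 where 4.8% of 17234 genes were called higher, and none was called lower, where 2.46% of all genes were. The median log2 ratio of the 10 was 0.86, beside 0.0046 over all genes, again for genes chosen with earlier results known. Mmp12 held 0 counts in Oil, 175 in CCl4 and 47 in CCl4-JT003. Set against a floor of 3 counts in the Oil library, the 175 counts of CCl4 were 47.8-fold higher. That figure leaves out the counting error of the 175, and the counting interval began lower, at a log2 ratio of 5.26.

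Mmp14 held 764, 1972 and 1376 counts in Oil, CCl4 and CCl4-JT003, with CCl4 the highest. CCl4 was 2.11-fold above Oil, a log2 ratio of 1.08 (0.96 to 1.20), close to the size a call needed. Adamts5 held 30, 115 and 59 counts, a 3.02-fold rise with a log2 ratio of 1.59 (1.06 to 2.28). Mmp19 held 838, 1468 and 1126 counts, a log2 ratio of 0.52 (0.40 to 0.64), and Mmp2 held 70, 136 and 165 counts, a log2 ratio of 0.66 (0.24 to 1.11). Neither was called.

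Timp1 held 12, 38 and 24 counts, a log2 ratio of 1.25 (0.41 to 2.45) that was not called. Timp3 was the only one of the 10 with its interval below 0. It held 337, 266 and 453 counts, the CCl4 library lowest, with a log2 ratio of -0.63 (-0.87 to -0.39), not called. Syn3, which overlaps it, held 38, 46 and 45 counts. Mmp13 (3, 10 and 5 counts), Timp2 (368, 509 and 456) and Adamts2 (177, 251 and 247) had intervals that included 0.

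The fourth comparison set CCl4-JT003 against CCl4, and shares the CCl4 library with the third. Mmp12 fell from 175 to 47 counts, 3.64-fold, with a log2 ratio of -1.86 (-2.40 to -1.44). It was the only one of the 10 called lower, where 2.55% of 17393 genes were, and none was called higher, where 1.91% of all genes were. The 47 counts of the treated library stood 12.7-fold above Oil by the same floor. The counting interval again began lower, at a log2 ratio of 3.32. Mmp12 was the only one of the 10 called against Oil, where 3.29% of all genes were called higher. Mmp14 stood at -0.53 (-0.63 to -0.43), Mmp19 at -0.39 (-0.51 to -0.28) and Adamts5 at -0.95 (-1.45 to -0.51) on the log2 scale, with intervals below 0 and no call. Timp3 stood at 0.75 (0.54 to 0.98), with 453 counts against 266 in CCl4 and 337 in Oil. Mmp2 was the one protease with its highest count, 165, in a treated library, a log2 ratio over CCl4 of 0.26 (-0.07 to 0.61).

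Cell-type markers also differed between the libraries, not always in the direction of these genes, and their part in these results was not tested. FPKM sums of markers carry no TMM scaling between libraries, unlike the log2 ratios. The 10 macrophage markers summed to 96.4, 113 and 139 FPKM in SD, HFD and HFD-JT003, and to 27.0, 105 and 108 FPKM in Oil, CCl4 and CCl4-JT003. None of the 10 was at 0 in any library. The sum was carried mostly by Lyz2 and Clec4f, and the list itself was divided. For JT003 over HFD, 6 of the 10 markers had log2 ratios above 0 and 4 below, with 2 called lower. For JT003 over CCl4, 4 lay above and 6 below, with 1 called lower. Within that list, Gpnmb and Trem2, which mark lipid- and scar-associated macrophages, were lower in both treated libraries, as Mmp12 was. All 3 of these calls were theirs. Gpnmb held 33, 144 and 34 counts in the diet libraries and 14, 843 and 232 in the CCl4 libraries, and Trem2 held 22, 53 and 19, and 6, 193 and 105. The 10 stellate cell and myofibroblast markers summed to 24.4, 55.8 and 34.4 FPKM in the diet libraries and to 35.7, 101 and 57.4 FPKM in the CCl4 libraries, with none at 0. Most of the rise of that sum from Oil to CCl4, and from SD to HFD, came from the collagens Col1a1, Col1a2 and Col3a1. They stood at 1.97, 3.13 and 2.65 FPKM in Oil and at 20.41, 19.22 and 19.46 FPKM in CCl4. Acta2, the myofibroblast actin, held 165, 108 and 45 counts in Oil, CCl4 and CCl4-JT003, against that sum from Oil to CCl4 only. Lrat held 135, 142 and 258 counts, against the sum from CCl4 to CCl4-JT003. From SD to HFD Lrat went with the sum, at 145 and 395 counts. Lrat was the only marker of that list with a log2 ratio above 0 in both JT003 comparisons. Col1a1, which is part of that sum and a substrate of Mmp13 and Mmp14, held 178, 899 and 343 counts in the diet libraries. It held 231, 2483 and 876 in the CCl4 libraries. The 6 neutrophil markers summed to between 6.79 and 17.0 FPKM, with Mpo at 0 in SD. The 5 sinusoidal endothelial markers summed to between 23.0 and 70.7 FPKM, lowest in CCl4, and the 4 bile duct markers to between 2.27 and 13.9 FPKM. The 4 cycling-cell markers summed to 55.2 FPKM in CCl4 and to at most 2.55 FPKM elsewhere.

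Across the 6 libraries, the genes with patterns most like each of 8 of the 10 were found by the root mean square difference of centred log2 levels over 10278 genes with enough counts. For Mmp12 the 3 nearest were Atf3 (distance 1.16), Gpnmb (1.25) and Trem2 (1.27), so no gene lay close to its 0-to-175 range. For Adamts5 the nearest was Sparc (0.12), a collagen-binding matrix glycoprotein, with 995, 1688 and 1146 counts in the diet libraries and 858, 3138 and 2018 in the CCl4 libraries. For Mmp14 it was Apom (0.09), an apolipoprotein carried on HDL, with 3678, 1934 and 2514 counts, and 2112, 5292 and 3642. The nearest to Timp3 was 1700025G04Rik (0.12). These distances rest on 6 libraries and describe shape only.

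The 2 experiments could be compared, because HFD over SD and CCl4 over Oil share no library. A difference was counted where the log2 ratios differed by at least 1 and the 95% counting interval excluded 0, which 16.6% of 13952 genes did. Mmp14, Mmp12 and Adamts5 met it, 3 of 10. Mmp14 lay lower in HFD than in SD and higher in CCl4 than in Oil, a difference of -2.06 (-2.24 to -1.88). Adamts5 differed by -1.02 (-1.87 to -0.18). Mmp12 differed by -2.57 (-4.77 to -0.37), a size and an interval that depend on the prior count because Oil held 0. Timp3 differed by 0.78 (0.49 to 1.08), Timp1 by 1.14 (-0.63 to 2.91) and Mmp13 by 1.94 (-0.35 to 4.24), none of which met the criterion. The 2 controls are themselves unlike for Mmp14, with 1306 counts in SD and 764 in Oil. They differ in injection and length, 16 weeks against 6 weeks, and so in age at collection. The diet of the mice in the CCl4 experiment is not stated.

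For JT003, none of the 10 met the same criterion between the experiments, where 9.3% of 14110 genes did. Mmp12 differed by -0.14 (-0.82 to 0.54) and Timp3 by -0.03 (-0.30 to 0.24). Both depended on the CCl4 library: with the rest of the pooled CCl4 counts described below in its place, Mmp12 differed by 0.92 (0.27 to 1.57) and Timp3 by 0.46 (0.23 to 0.69), still under the size counted. Mmp14 differed by 0.66 (0.48 to 0.83), Mmp19 by 0.30 (0.14 to 0.46) and Mmp2 by -0.68 (-1.21 to -0.15), with intervals off 0 and sizes under 1. The doses were equal and the lengths of treatment were not, 4 weeks in HFD and 3 weeks in CCl4.

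**Figure D3:**
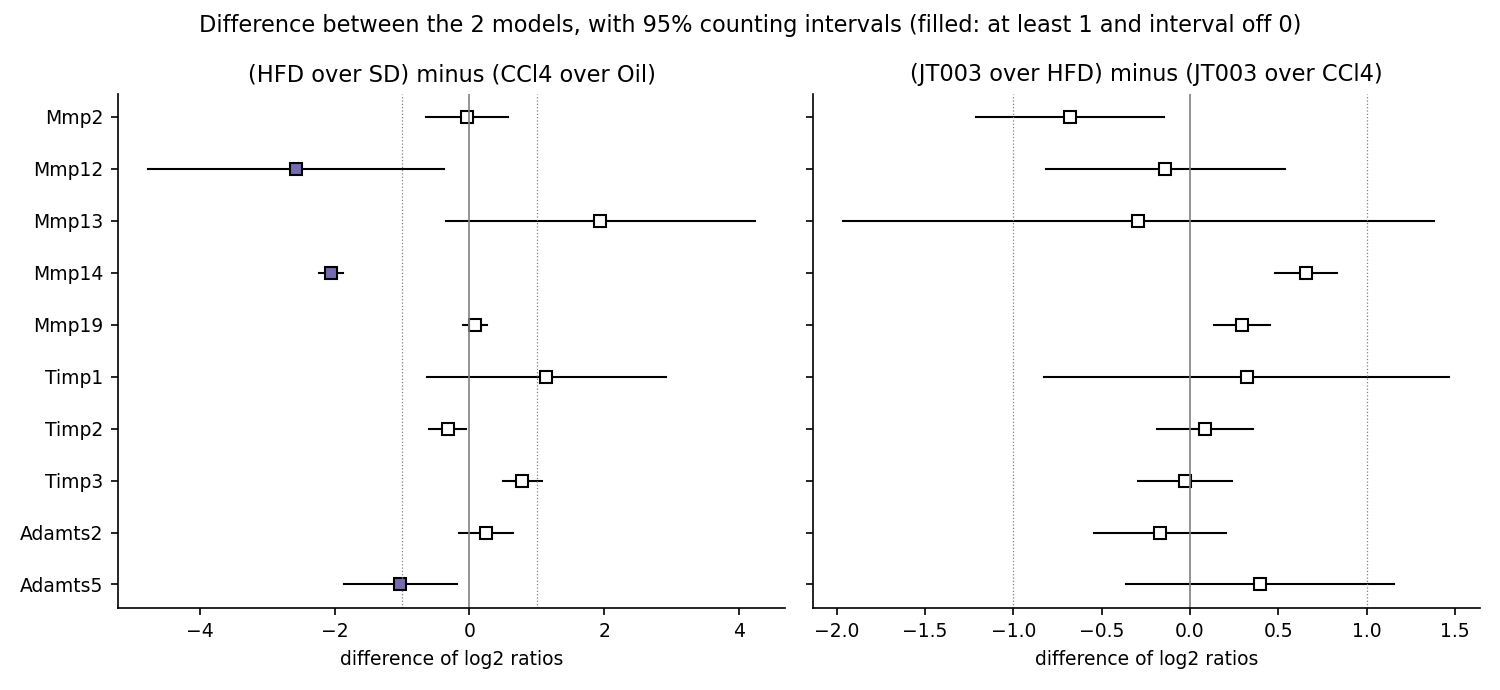
Differences between the experiments in the log2 ratios (horizontal axis) of the 10 genes, with 95% counting intervals as lines and dotted lines at 1 in either direction. Mmp12, Mmp14 and Adamts5 are filled in the disease panel, all to the left of 0, and no gene is filled in the JT003 panel.

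Summed over genes, the 7 proteases stood at 30.7, 34.7 and 32.1 FPKM in SD, HFD and HFD-JT003, while the 3 TIMPs summed to 10.6, 12.6 and 16.04. In the CCl4 experiment the proteases stood at 25.8, 54.1 and 41.5 FPKM in Oil, CCl4 and CCl4-JT003, and the TIMPs at 9.50, 11.8 and 12.8. Unlike the log2 ratios, these sums carry no TMM scaling between libraries. The TMM factors were 0.941, 1.03 and 1.04 in the diet libraries and 0.884, 1.04 and 1.09 in the CCl4 libraries. FPKM therefore places SD and Oil lower beside the others than the log2 ratios do. A ratio of sums within 1 library is free of this. The ratio of the sums was 2.89, 2.75 and 1.999 in the diet libraries, and 2.71, 4.59 and 3.25 in the CCl4 libraries. It was lower in each JT003 library than in its disease library. In the CCl4 experiment this rests on the single CCl4 library. In the further CCl4 reads described below, Timp2 and Timp3 lay 1.39-fold and 1.42-fold above that library. Mmp14 and Mmp19 lay at 0.922 and 0.904 of it, and the ratio of the sums was not computed from those reads. Neither the lower ratio nor the higher TIMP sum of CCl4-JT003 beside CCl4 is therefore established beyond the single CCl4 library. In HFD-JT003 the TIMP sum was 60.8% Timp3, against 46.2% in HFD, and in CCl4-JT003 it was 38.6%, against 23.7% in CCl4. Timp1 made up 1.13%, 9.11% and 5.67% of the TIMP sum in SD, HFD and HFD-JT003, and 7.37%, 18.1% and 11.3% in the CCl4 experiment.

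**Figure D4:**
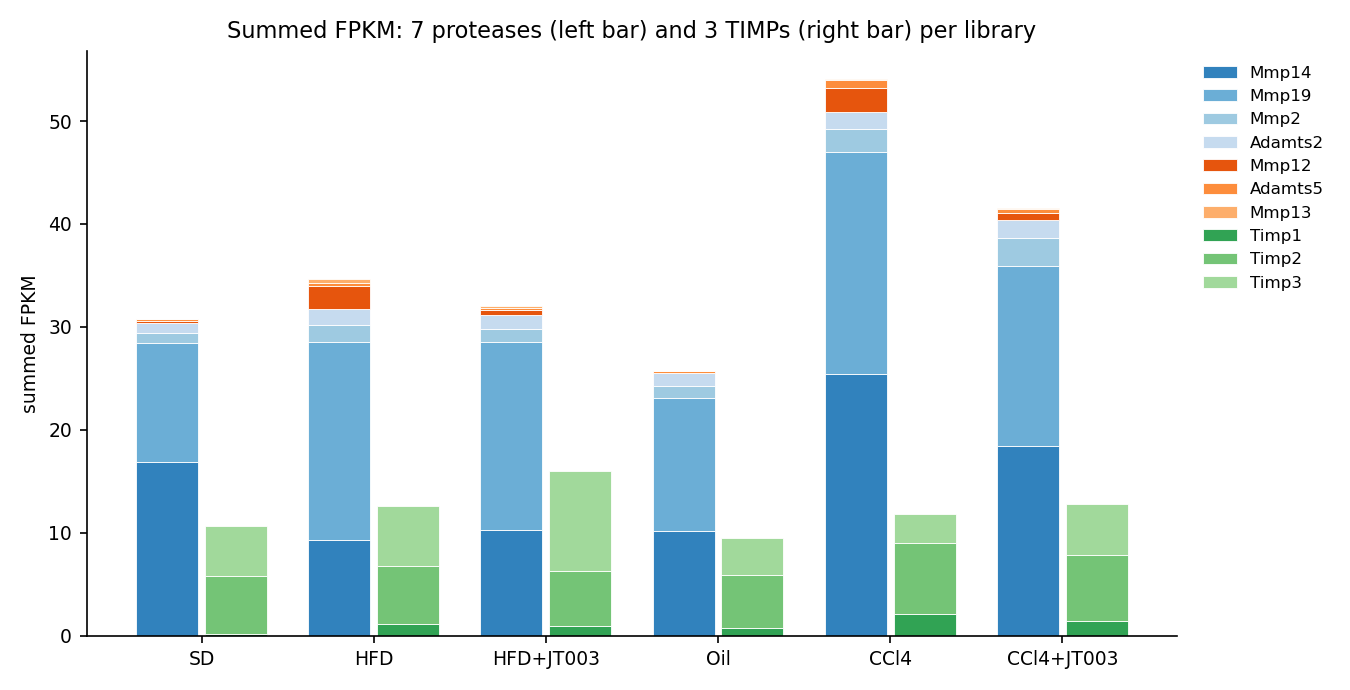
Summed FPKM (vertical axis, linear, starting at 0) of the 7 proteases (left bar) and 3 TIMPs (right bar) in each library, stacked by gene. The protease bar is tallest in CCl4, at 54.1 FPKM, and the TIMP bar in HFD-JT003, at 16.04 FPKM.

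The CCl4 condition alone could be checked against further reads. A column for CCl4 in the authors' comparison table summed to 2.97 times the CCl4 library and was at no gene lower by more than 0.99, so it appears to hold that library with others. After the CCl4 library was subtracted, 39781089 counts were left, here called the remainder. Between the remainder and the CCl4 library 1.66% of 17813 genes were called, and 1 of the 10: Mmp12 held 757 counts there, 366 at the library's size against 175, a log2 ratio of 1.06 (0.82 to 1.31). Mmp2 lay 0.77 higher (0.50 to 1.06), Timp3 0.50 higher (0.30 to 0.71) and Mmp14 near the library at -0.12 (-0.20 to -0.04) on the log2 scale.

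With the remainder in place of the CCl4 library, a choice made after seeing the data, Mmp12 remained called in both comparisons, with a log2 ratio of -2.92 (-3.42 to -2.53) for JT003. Adamts5 was called higher with CCl4 at 1.86 (1.35 to 2.49) and lower with JT003 at -1.21 (-1.66 to -0.82). Mmp14 was no longer called with CCl4, at 0.94 (0.83 to 1.06). Mmp2 was called at 1.42 (1.07 to 1.81), and its JT003 ratio turned to -0.50 (-0.76 to -0.24). Timp1 was called too, at 1.39 (0.59 to 2.48) over Oil. Timp3 shrank to -0.14 (-0.33 to 0.05) over Oil and to 0.26 (0.09 to 0.43) for JT003. The lower Timp3 with CCl4, and most of its JT003 ratio, thus rested on the single CCl4 library. Timp2, Adamts2 and Mmp13 had intervals across 0 with that library and off 0 with the remainder, without a call. Over Oil and for JT003, Timp2 stood at 0.64 (0.48 to 0.81) and -0.64 (-0.79 to -0.49). Adamts2 stood at 0.65 (0.41 to 0.89) and -0.47 (-0.69 to -0.26), and Mmp13 at 1.55 (0.17 to 4.23) and -1.23 (-3.16 to -0.04).

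**Figure D5:**
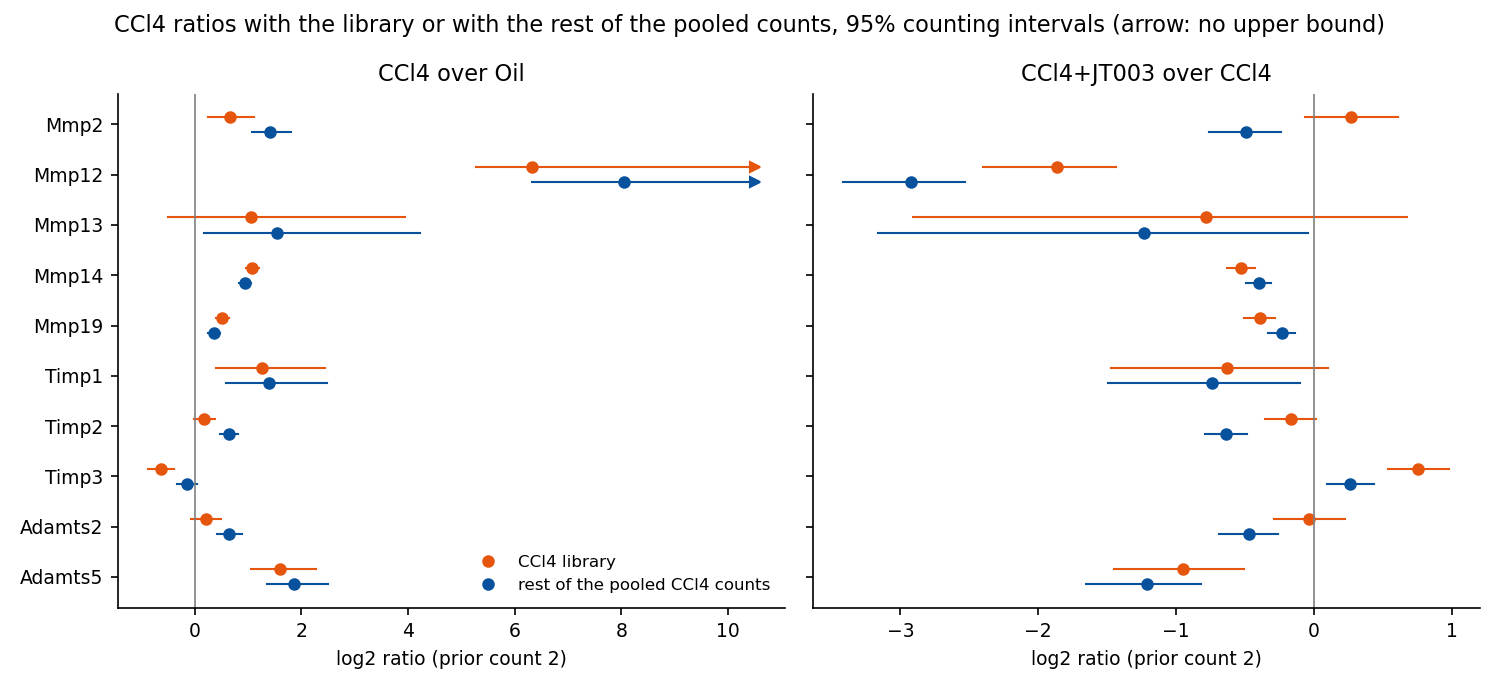
Log2 ratios (horizontal axis, prior count 2) of the 10 genes in the CCl4 comparisons, with the CCl4 library (orange) or the remainder of the pooled CCl4 counts (blue), and 95% counting intervals as lines. Mmp2 changes side of 0 in the JT003 panel, and the Timp3 points move toward 0 in both.

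Around the 10, 70 other genes of the matrix protease system were listed, of which 65 had reads. HFD over SD called 1 of the 60 tested higher and 1 lower, where 2.96% and 2.49% of all genes were: Adamts7, a protease of cartilage matrix, higher (63 to 140 counts, log2 ratio 1.04) and Adamts15 lower (82 to 33, -1.35). CCl4 over Oil called 7 of the 63 tested higher and 1 lower, where 4.8% and 2.46% of all genes were. Those higher were Mmp7 (10 to 44 counts), Mmp15 (588 to 1498), Adamts1 (89 to 260), Adamts7 (50 to 187), Adamts9 (18 to 61), Adam8, a leukocyte membrane protease (8 to 96, log2 ratio 3.04), and Ctss, the cathepsin of antigen-presenting cells (160 to 705, 1.84). Mmp3, stromelysin 1, fell from 12 counts to 0. JT003 over CCl4 called 1 of 62 lower and 0 higher, where 2.55% and 1.91% of all genes were: Adam8 fell from 96 to 38 counts, a log2 ratio of -1.30. The neutrophil collagenase Mmp8 (0 to 10 counts in any library) and the gelatinase Mmp9 (4 to 13) were near the limit of detection and were not called.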

How the data were processed

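Liver RNA was sequenced on a BGISEQ-500 instrument by the authors. The deposited gene tables give expected counts and FPKM per library, and the submitters' processing notes name HISAT, Bowtie2, RSEM and the mm9 build, with no versions. From the deposited expected counts, rounded to whole numbers, libraries were scaled by TMM (edgeR 4.0.16) over the 3 libraries of each experiment. Each pair of libraries was compared by a two-sided exact conditional binomial test with Benjamini-Hochberg adjustment over all genes with at least 1 read. FPKM was normalized by the authors to length and depth and used, without TMM scaling, for levels of genes and for summed levels per library. Intervals of single ratios are exact Clopper-Pearson intervals at 95%, turned into log2 ratios. Intervals of differences between the experiments are 95% intervals by the normal approximation, with the prior count added to each count. Both cover counting error only. The floor of 3 counts stands in for a library at 0 and leaves out the counting error of the other library. Scripts ran in R 4.3.3 and Python 3.11.15 and were tested on simulated data. Nearest patterns were sought for members, and among genes, whose highest library held 100 counts or more, by log2 counts per library size centred on each gene, and the 3 nearest genes were kept. Genes were matched to RefSeq by gene ID (18343 of 18384). Alternatives were total-count and DESeq2 1.42.0 scaling, TMM over all 6 libraries, a minimum of 10 counts, a prior count of 0.5, no log2 threshold, edgeR's exact test with an assumed coefficient of variation of 0.2 or 0.4, log2 of FPKM plus 1 or 0.1, and the pooled CCl4 counts. The named genes were the 10 members, the listed relatives called in at least 1 main comparison, and Mmp3, Mmp8 and Mmp9. A result among the relatives is not reported here. The members and lists were chosen with earlier results of these data known. The 4 deposited comparison tables hold the authors' fold changes, p-values and annotations, which were not used, and 7 of their expression columns were not used either. No protein sequence was used.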

Additional observations from a re-analysis of the deposited data

Results flagged for a closer look

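Log2 ratios of 3 genes differed between the experiments (HFD over SD minus CCl4 over Oil) by at least 1, with a counting interval that excluded 0: Mmp14 by -2.06, Mmp12 by -2.57 and Adamts5 by -1.02. Each rests on 4 libraries, 1 per condition, and no test of the difference against the spread between mice was possible. For Mmp14 the value lay between -2.17 and -1.92 over the 6 alternatives tried. For Mmp12 it was -4.37 with a prior count of 0.5, because Oil held 0 counts, -4.45 with the pooled CCl4 counts and -4.28 with their remainder. For Adamts5 it was -0.995 with TMM over all 6 libraries, which is under the size counted. The experiments also differed in injection and length of exposure, and so in age at collection, which cannot be told apart from the agent. The diet of the mice in the CCl4 experiment is not stated.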

How the results depend on the processing

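No paired analysis was possible because each condition had 1 library, and for the same reason no replicate could be left out. Comparisons are named in the order HFD over SD, JT003 over HFD, JT003 over SD, CCl4 over Oil, JT003 over CCl4 and JT003 over Oil. Of 184 recomputed counts of calls, 109 stayed within 1.5 times, and 75 did not. Without a log2 threshold, genes called were 4003, 2445, 4566, 4531, 4199 and 3576, members 5, 2, 4, 5, 5 and 3, and relatives in the 4 main comparisons 16, 7, 20 and 13. With an assumed coefficient of variation of 0.2, genes called were 179, 19, 203, 346, 165 and 138, members 1, 0, 0, 1 and 0 in the first 5, and relatives 0, 0, 1 and 0. With 0.4 they were 11, 0, 5, 59, 0 and 24, members 0, 0, 0, 1, 0 and 0, and relatives 0 in all 4. Mmp12 was the member called under 0.2 with HFD and CCl4, and under 0.4 with CCl4, and its JT003 calls against HFD, SD and CCl4 held under neither, while that of CCl4-JT003 over Oil held under 0.2 only. On log2 of FPKM plus 1, genes called were 668 for JT003 over SD and 496 for JT003 over CCl4, members 1 with HFD and 0 for JT003 over either control, and relatives 0 with HFD, 5 with CCl4 and 0 for JT003 over CCl4. On log2 of FPKM plus 0.1, genes called were 1634, 947, 1827, 2298, 1554 and 2116, members 4 and 2 for JT003 over SD and over Oil, and relatives 8 with HFD, 4 for JT003 over HFD and 2 for JT003 over CCl4. Scaled to total counts, members were 2 for JT003 over SD (Timp3 added) and 2 over Oil (Mmp2 added), and relatives 4 with HFD. That scaling moved the median of all genes to 0.12 for HFD over SD, 0.13 for JT003 over SD, 0.23 for CCl4 over Oil and 0.32 for JT003 over Oil, and the share of calls that were higher from 54.3% to 65.7%, 53.5% to 66.8%, 66.1% to 81.7% and 65.0% to 86.1%. For JT003 over CCl4 that share went from 42.8% to 51.1%, so the majority of calls turned from lower to higher. With the pooled CCl4 counts, members called were 2 for JT003 over CCl4 (Adamts5 added), and relatives 14 with CCl4 and 6 with JT003. With the remainder they were 2, 16 and 11.

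Of 759 recomputed member values, 689 kept direction and call, 24 lost the call, 27 gained one and 19 changed sign. With the pooled counts, Mmp2 for JT003 over CCl4 was -0.30, and with the remainder -0.50. Adamts2 there was 0.0337 by total counts, 0.0213 by FPKM plus 1 and 0.0319 by FPKM plus 0.1. Timp2 for JT003 over Oil was -0.00730 with DESeq2 factors and -0.0282 with TMM over all 6. The difference between experiments changed sign for Mmp19 by total counts (-0.0213) and for Adamts2 with the pooled counts (-0.0607) and the remainder (-0.18). The JT003 difference changed sign with the pooled counts for Mmp12 (0.67), Mmp13 (0.0873), Timp3 (0.32) and Adamts2 (0.15), and with the remainder for Mmp2 (0.0810), Mmp12 (0.92), Mmp13 (0.15), Timp3 (0.46) and Adamts2 (0.27). None of these values was called or met the criterion in the main analysis, and the cause was not tested. Depth limits Mmp13 and Timp1, which held at most 23 and 38 counts.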
